A study of Mus musculus with 5 samples.

Results

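Immediate-early genes other than those of the AP-1 factor were followed through the early course of a mouse leukemia in single bone marrow cells. The 10 genes were listed by name: Ier2, Ier5, Egr1, Dusp1, Zfp36, Nr4a1, Atf3, Btg2, Ppp1r15a and Nfkbia, of 28692 genes in the deposited count matrices. Each of the 5 libraries came from 1 C57BL/6J mouse, 8 weeks old by the study's methods, and all 5 mice had received 1000 BCR-ABL1 pre-B ALL cells through the tail vein without irradiation. The day 0 mouse was killed directly after the transfer, so it carried the injected cells too, and the others were killed at days 3, 6, 9 and 12. Marrow flushed from femurs and tibias was pooled with cells freed from the crushed bones by warm collagenase and DNase I, red cells were lysed, and the suspensions were frozen before 10x 3' v2 sequencing. With 1 mouse per day these libraries held no replicate, and no difference between days could be tested here against the spread between mice. In sorted neutrophils from several mice per time point, the study measured genes including Atf3, Fos and Klf2 by qRT-PCR. It reports that this bore out the lower expression seen in neutrophils, and those values were not used here. The intervals given here are exact 95% Poisson or binomial intervals that cover counting error only, and a gene was counted as lower or higher when 2 days differed by at least 1.5 times.

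Immediate-early genes are transcribed within minutes of a signal reaching a cell, from factors that are already present, and need no new protein for it. Many of their transcripts are short-lived, and several of their products feed back on the signal: phosphatases that switch off kinases, proteins that shorten mRNAs, and inhibitors that return transcription factors to the cytoplasm. In blood cells they respond to growth factors, antigen receptors, bacterial products and stress, and also to handling of the tissue, so their mRNA level at any moment is a record of recent signals. The 10 genes cover most of these roles. Egr1, Nr4a1 and Atf3 encode transcription factors, Dusp1 a phosphatase of MAP kinases, Zfp36 the mRNA-destabilizing protein tristetraprolin, and Nfkbia the inhibitor of NF-kB. Ppp1r15a encodes the subunit that returns translation to normal after stress, Btg2 an antiproliferative regulator of mRNA deadenylation, and Ier2 and Ier5 nuclear proteins induced by growth factors and stress.

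The libraries held 33425695 to 43554233 UMIs (unique molecular identifiers, each counting 1 captured mRNA molecule). Barcodes with at least 500 UMIs numbered 5474 to 7604 per day, with medians of 2874 to 3786 UMIs, and pairs of libraries shared 44 to 73 barcodes. Independent draws give 43.6 to 68.9, and the widest gap was at days 3 and 6, with 68 shared for 48.3 expected. Without the 10 genes and their relatives, 23 clusters were formed, of which 19 made up 8 classes named from marker genes. Neutrophil-like cells numbered 2956 to 4185 per day, monocyte-like cells 509 to 811 and T-like cells 217 to 752. GMP-like cells, named for granulocyte-monocyte progenitors, numbered 322 to 551 and NK-like cells 55 to 142. The larger GMP-like cluster held 7 GMP markers but also 8 monocyte and 4 early progenitor markers, so the name is approximate. Day 12 held the fewest B-like, pro/pre-B-like and plasmacytoid dendritic-like cells, with 131, 32 and 28. Over whole libraries the mitochondrial share was lowest at day 12, with a median of 0.691% against 1.66 to 2.19% on the other days. Neutrophil-like cells, the class with the lowest share, were 71.3% of the day 12 barcodes and 45.5 to 54.0% on the other days. Within each of the 8 classes the median was lower at day 0 than at day 12, with 0.443 and 0.499% in neutrophil-like cells.

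Free RNA in the droplets bears on every value below, because barcodes with at most 100 UMIs, taken as free RNA, held the same transcripts. Dusp1 stood at 8.52, 4.52, 5.85, 5.08 and 10.0 UMIs per 10000 in free RNA, in the order of the days, so free RNA itself was high at days 0 and 12. The share of each class that free RNA made up was estimated from genes of the other lineage (neutrophil granule genes in lymphoid and plasmacytoid dendritic-like cells, B and T cell genes in myeloid cells). It came to 8.76 to 14.7% in neutrophil-like, 17.1 to 36.3% in monocyte-like, 24.6 to 41.1% in B-like and 17.9 to 34.1% in T-like cells. By that estimate Atf3 was at or below the level free RNA would give in 18 of 40 combinations of class and day, and Dusp1 in 14 of 40. The same count was 5 for Zfp36, 4 for Egr1, 2 for Ier5, 1 each for Ier2 and Nr4a1, and 0 for Btg2, Ppp1r15a and Nfkbia. Doublets, which were kept, also carry genes of the other lineage, so the estimate may overstate free RNA. In places it exceeded the measured level beyond counting error, so it was too high there. Atf3 in B-like cells at day 12 was expected at 0.400 and measured at 0.0390, with an interval up to 0.217. Atf3 in B-like and T-like cells lay at or below the estimate on all 5 days, so how much of it was background could not be told.

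Promoter sequences are shown for 5 of the genes because their levels followed different courses over the days. Dusp1, Ppp1r15a and Zfp36 had their 2 highest point levels at days 0 and 12 in all 8 classes, while Btg2 and Nfkbia did not. Each run is the 250 bases before the transcription start (RefSeq, build GRCm38.p6), 5' to 3' on the coding strand, with motif matches in capitals. All 5 genes lie on the minus strand. The matches are a CRE in Dusp1, Ppp1r15a and Btg2, an Egr site followed by a CArG box in Zfp36, and an NF-kB site in Nfkbia.
Dusp1, chr17:26508473-26508722, minus strand: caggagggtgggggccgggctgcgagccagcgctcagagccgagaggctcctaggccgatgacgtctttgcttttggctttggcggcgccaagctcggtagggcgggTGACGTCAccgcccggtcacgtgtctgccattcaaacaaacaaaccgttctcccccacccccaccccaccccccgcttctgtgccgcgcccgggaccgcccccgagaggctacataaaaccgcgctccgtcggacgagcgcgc
Ppp1r15a, chr7:45526269-45526518, minus strand: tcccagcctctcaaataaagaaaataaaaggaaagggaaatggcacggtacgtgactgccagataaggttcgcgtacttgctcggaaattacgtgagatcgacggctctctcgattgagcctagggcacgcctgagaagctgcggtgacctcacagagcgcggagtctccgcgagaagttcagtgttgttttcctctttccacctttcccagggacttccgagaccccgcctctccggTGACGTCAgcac
Btg2, chr1:134079156-134079405, minus strand: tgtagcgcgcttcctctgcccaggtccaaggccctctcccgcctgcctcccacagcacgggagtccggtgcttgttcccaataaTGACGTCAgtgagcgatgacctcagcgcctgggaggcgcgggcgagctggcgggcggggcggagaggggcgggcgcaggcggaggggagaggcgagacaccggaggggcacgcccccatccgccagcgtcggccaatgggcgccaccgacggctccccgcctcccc
Zfp36, chr7:28379229-28379478, minus strand: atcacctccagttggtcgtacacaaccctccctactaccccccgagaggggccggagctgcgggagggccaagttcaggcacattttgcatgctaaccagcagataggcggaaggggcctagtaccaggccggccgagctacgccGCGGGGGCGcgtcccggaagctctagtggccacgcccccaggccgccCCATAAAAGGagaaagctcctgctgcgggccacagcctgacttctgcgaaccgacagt
Nfkbia, chr12:55492648-55492897, minus strand: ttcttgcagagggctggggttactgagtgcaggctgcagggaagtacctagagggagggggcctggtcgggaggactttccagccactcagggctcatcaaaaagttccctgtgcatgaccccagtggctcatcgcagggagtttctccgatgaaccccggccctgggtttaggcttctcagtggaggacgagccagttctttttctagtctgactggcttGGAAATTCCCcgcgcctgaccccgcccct
Of the 10 genes, 8 were in the set of promoters searched. Ier2 and Egr1 were not in that set, so their promoters were not tested for any of these motifs. The background shares given below are also of that set only. The full CRE, TGACGTCA, which CREB and ATF proteins bind, was present in 3 of the 8 and in 1.55% of 32851 promoters of the same length. It began 143 bases before the start in Dusp1, 166 in Btg2 and 12 in Ppp1r15a. The Egr site GCGGGGGCG was present in 2 of the 8 (Zfp36 and Nr4a1, background 2.57%), the CArG box of serum response factor in 1 (Zfp36, 1.47%), and the NF-kB site in 1 (Nfkbia, 7.25%). Neither the AP-1 site TGANTCA (6.75%) nor TATAAA (12.4%) was found in any of the 8. Both strands were searched, and the CRE letters were found in Btg2 as well as in Dusp1 and Ppp1r15a, whose courses over the days differed from it.

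Days 0 and 12 stood above all other days in 8 of 8 classes for Dusp1, Zfp36 and Ppp1r15a, in 7 for Ier2, 6 for Egr1, 5 for Ier5, 4 for Atf3 and 2 each for Nr4a1, Btg2 and Nfkbia. Over 8 classes, 50 of 74 measured combinations of gene and class were lower at day 3 than at day 0 and 1 was higher, while 8.07% of all gene and class combinations were lower. The same count was 47 lower of 75 at day 6 (5.47% of all) and 54 lower of 75 at day 9 (7.11%), with none higher, but 22 lower of 71 and 1 higher at day 12 (6.21%). A gene was measured in a class when its UMIs over the 2 days summed to at least 50.

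Comparisons that leave out day 0 set day 12 apart too. Day 12 was higher than day 3 in 28 of 62 combinations (7.23% of all), higher than day 6 in 21 of 64 (6.25%) and higher than day 9 in 28 of 65 (6.13%), with 1 lower each time. Among days 3, 6 and 9 fewer combinations passed 1.5 times. At day 6 against day 3, 14 of 68 were higher and 1 lower, where 9.96% of all passed either way. At day 9 against day 3, 8 of 67 were higher and 3 lower (9.83%), and at day 9 against day 6, 1 of 66 was higher and 4 lower (6.16%). Subtracting the free RNA estimate in the 5 classes described next kept Ppp1r15a below day 0 by 1.5 times in 5 of 5 classes at each of days 3, 6 and 9. Dusp1 was then below in 5, 5 and 4 of 5 and Atf3 in 2, 3 and 2 of 5. In B-like and T-like cells subtraction left no Dusp1 at days 3, 6 and 9, and in pro/pre-B-like cells none at day 3. There the Dusp1 counts rest on levels cut to 0. These comparisons share libraries, and each day is 1 mouse, so a day cannot be told apart from its mouse, its preparation or its library.

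**Figure D1:**
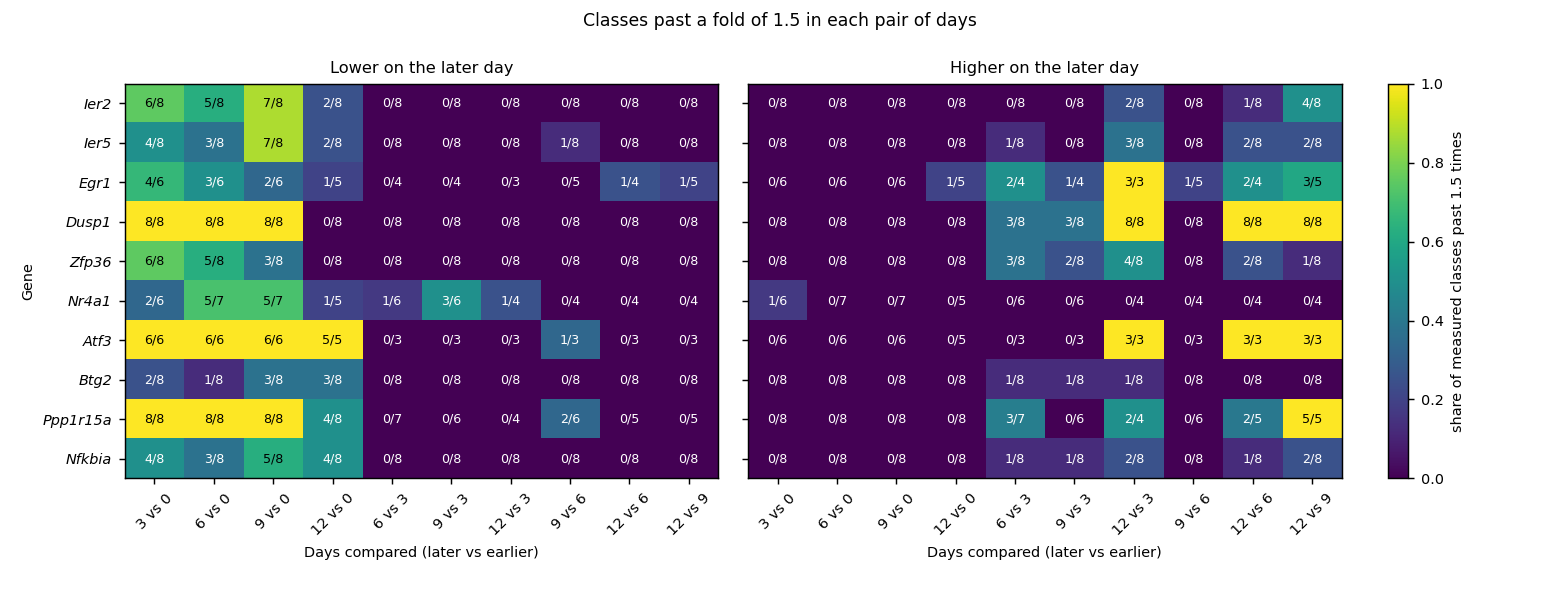
For each of the 10 genes (rows) and each pair of days (columns), the number of classes past 1.5 times over the number measured, lower on the later day at left and higher at right; colour gives the share. Dusp1 was lower in 8 of 8 classes at days 3, 6 and 9 against day 0 and higher in 8 of 8 at day 12 against days 3, 6 and 9.

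Neutrophil-like cells held the largest counts. Of the 10 genes, 4 were lower at day 3 than at day 0 (4.33% of all genes measured in these cells were), 5 at day 6 (3.48%), 6 at day 9 (4.43%) and 2 at day 12 (5.14%). At day 12, 4 of the 10 were higher than at day 9, against 3.05% of all genes. Over the 6 pairs among days 3, 6, 9 and 12, 13 of 60 comparisons passed 1.5 times either way (9.27% of all), and 2 of the 30 among days 3, 6 and 9 alone. The median log2 ratio of the 10 genes to day 0 was -0.50, -0.48, -0.62 and -0.35 at days 3, 6, 9 and 12, where all genes together had 0.15, 0.22, 0.21 and 0.02. With the median gene set to 0 the lower counts summed to 21 of 40 in place of 17, and with 1 count per 10000 added before the ratio, the scale of the study, to 3. The median mitochondrial share of these cells moved with the genes in the opposite direction, at 0.443, 0.652, 0.746, 0.797 and 0.499% from day 0 to day 12, and its part in the result was not tested.

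In monocyte-like cells 6 of the 10 genes were lower at day 3 than at day 0 (background 4.38%), 6 at day 6 (3.46%), 6 at day 9 (4.92%) and 3 at day 12 (3.54%). At day 12, 4 were higher than at day 9 (4.02%), and 10 of 60 comparisons among the later days passed 1.5 times (7.01%), only 1 of them between days 3, 6 and 9. The genes that did not pass at days 3, 6 or 9 in these cells were Nr4a1 and Btg2. The median log2 ratio of the 10 genes was -0.73, -0.60, -0.72 and -0.50, and that of all genes stayed between -0.02 and 0.06. The median mitochondrial share was 1.87, 2.39, 2.53, 2.65 and 2.12%, again lowest at days 0 and 12, and its part was not tested. With 1 count per 10000 added, the lower comparisons came to 12 in place of 21.

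In B-like cells 8 of 10 genes were lower at day 3 (9.36%), 3 at day 6 (7.83%), 6 at day 9 (10.7%) and 4 at day 12 (12.9%). Day 12 was above day 9 for 3 of 9 measured genes (10.6%), and 13 of 51 comparisons of the later days passed (14.5%), or 26 with free RNA subtracted. Some of these 26 compare levels that subtraction had cut to 0. The lower counts of B-like cells include Dusp1 at days 3, 6 and 9 and Atf3 on all 4 later days. Their sum of 21 came to 13 after thinning and to 10 with 1 count per 10000 added.

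In T-like cells 4 were lower at day 3 (7.93%), 4 at day 6 (5.11%), 4 at day 9 (7.5%) and 1 at day 12 (6.35%), and Nr4a1 at day 3 and Egr1 at day 12 were higher. Atf3, which lay at or below the free RNA estimate here, is 1 of those lower on each day and the only gene lower at day 12. The sum of 13 lower comparisons came to 6 without the barcodes of highest doublet score, to 8 after thinning and to 1 with 1 count per 10000 added. Day 12 was above day 9 for 4 of 8 (8.48%), and 13 of 46 comparisons of the later days passed (11.4%), or 26 with free RNA subtracted. Some of these 26 compare levels that subtraction had cut to 0. Much of the Dusp1 and Zfp36 signal in T-like cells could be free RNA: Dusp1 lay at or below the free RNA estimate at days 3, 6 and 9, and Zfp36 likewise.

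**Figure D2:**
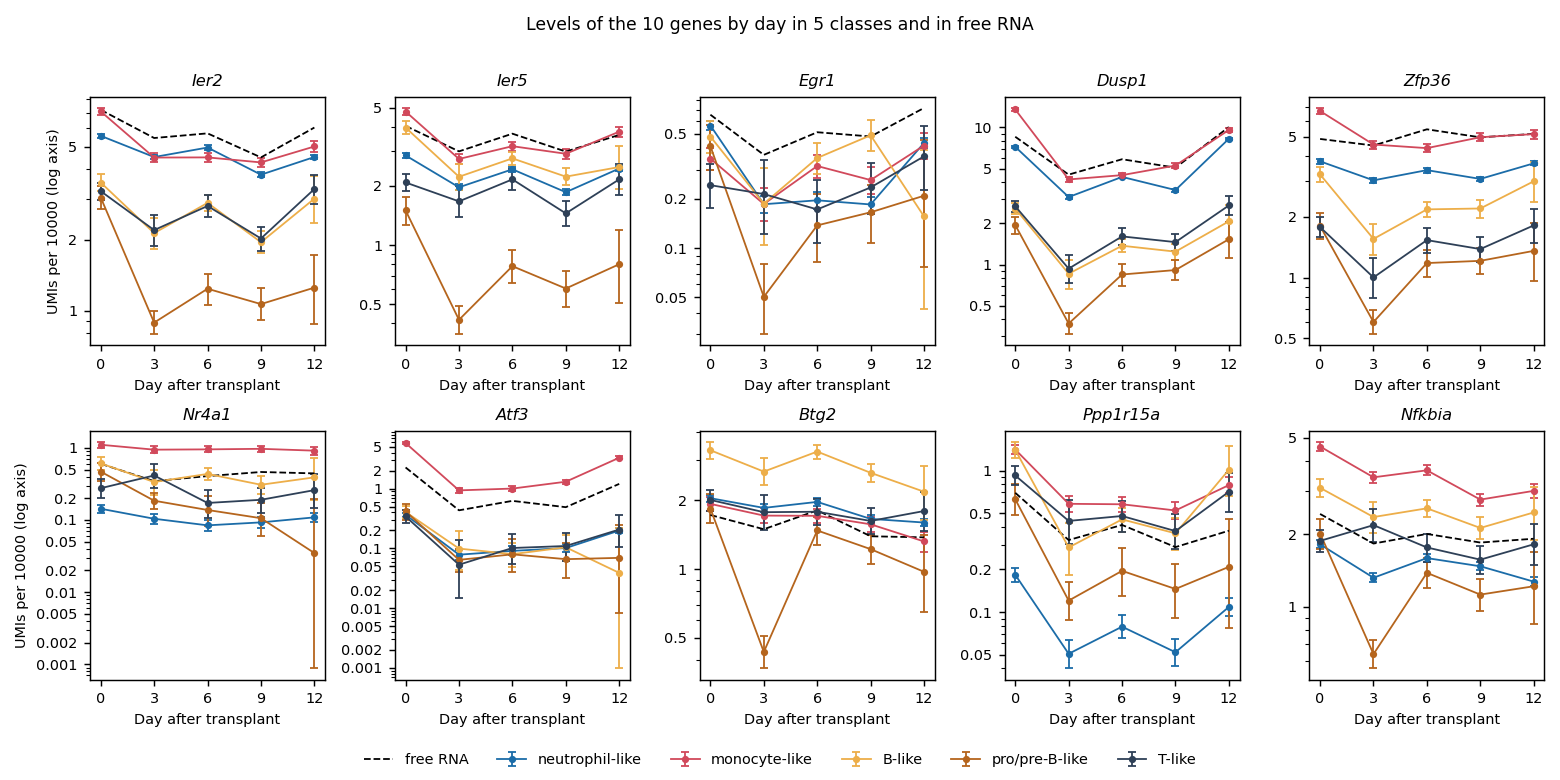
UMIs per 10000 (log axis) of each gene against the day after transplant in 5 classes and, dashed, in free RNA; bars are exact 95% Poisson intervals and each point is 1 mouse. Dusp1 in monocyte-like cells ran 13.5, 4.17, 4.48, 5.26 and 9.56, and the dashed free RNA line of Dusp1 had the same dip.

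Pro/pre-B-like cells had the largest share of lower genes, beside a large background. All 10 genes were lower at day 3 than at day 0, when 21.8% of all genes were, with log2 ratios from -3.03 (95% interval -3.94 to -2.22) for Egr1 to -1.34 (-1.90 to -0.77) for Nr4a1. At day 6 it was 8 of 10 (8.12%), at day 9 9 of 10 (11.1%) and at day 12 5 of 7 measured (13.7%). Day 12 was above day 9 for 1 of 6 (10.6%), and 19 of 41 comparisons of the later days passed (25.1%). Day 3 stood apart within this class. Its cells had a median of 11606.5 UMIs, against 3309 at day 0 and 4823 to 5400 on the other days. Beyond the thinned count given below, the part of depth was not tested. Cells with a UMI of Cdkn2a, a cell-cycle inhibitor picked out after its values were seen, numbered 123 of 236 at day 3 but 1 of 173 at day 0 and 2 or 3 on the other days. Without them, Dusp1 at day 3 was at 0.610 UMIs per 10000 in place of 0.373, Btg2 at 0.905 in place of 0.434 and Nfkbia at 1.09 in place of 0.639. The lower comparisons with day 0 were then 31 of 35 in place of 32 of 37 (17 of 19 after thinning, and 12 with 1 count per 10000 added), while comparisons among the later days that passed were 6 of 36 in place of 19 of 41.

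Ppp1r15a had a like course in all classes. By the estimate, it was above the level that free RNA would give in 40 of 40 combinations of class and day. In 5 of them over 50% could still be free RNA. It binds protein phosphatase 1 and directs it to the translation factor eIF2, ending the integrated stress response. By point levels, day 0 was its highest day and day 12 its second highest in 8 of 8 classes. The intervals of days 12 and 6 overlapped in neutrophil-, plasmacytoid dendritic-, pro/pre-B-, T- and NK-like cells. It was lower than at day 0 in 8 of 8 classes at days 3, 6 and 9 and in 4 of 8 at day 12. In B-like cells it was at 1.401, 0.286, 0.452, 0.360 and 1.01 UMIs per 10000 from day 0 to day 12, on 237, 23, 107, 62 and 26 UMIs. The day 3 level was 4.80-fold below that of day 0 (log2 -2.26, interval -2.98 to -1.67), day 12 was 2.85-fold above day 9 (log2 1.51, 0.77 to 2.18), and days 0 and 12 differed by a log2 of -0.44 whose interval, -1.11 to 0.12, spans 0. The free RNA estimate took away 0.171, 0.0824, 0.170, 0.105 and 0.125 of these levels, which left 1.23, 0.204, 0.282, 0.255 and 0.889.

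In the other classes days 0 and 12 again had the highest point levels of Ppp1r15a, and the order of days 3, 6 and 9 varied. Monocyte-like cells had 1.41, 0.582, 0.578, 0.522 and 0.789 UMIs per 10000, of which free RNA accounted for 8.43 to 17.3%. T-like cells had 0.923, 0.441, 0.477, 0.374 and 0.709, with 9.52 to 28.4% from free RNA. NK-like cells had 1.27, 0.259, 0.420, 0.335 and 0.961 on 49, 6, 14, 18 and 23 UMIs. Neutrophil-like cells had the lowest Ppp1r15a level on all 5 days, at 0.183, 0.0507, 0.0788, 0.0520 and 0.109, and there 33.3 to 86.4% could be free RNA. At day 12 their interval overlapped that of pro/pre-B-like cells.

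Atf3 encodes a stress-induced ATF/CREB factor that restrains inflammatory genes in myeloid cells. In monocyte-like cells, the class with the highest level on all 5 days, Atf3 was at 5.82, 0.938, 1.01, 1.31 and 3.30 UMIs per 10000 on 2687, 374, 470, 554 and 954 UMIs. Day 3 was 6.20-fold below day 0 (log2 -2.63, interval -2.79 to -2.48), and day 12 was 2.52-fold above day 9 (log2 1.33, 1.18 to 1.49) but still 1.76-fold below day 0. Days 3 and 6 could not be ordered, since their intervals overlapped. At most 14.0% of the Atf3 level of this class could be free RNA. In GMP-like cells Atf3 was at 1.05, 0.137, 0.173, 0.113 and 0.541, and day 12 was 4.76-fold above day 9 (log2 2.25, 1.88 to 2.65). Free RNA could make up 36.1 to 87.4% there, and its subtraction left 0.673, 0.0172, 0.0598, 0.0314 and 0.110. In neutrophil-like cells it was at 0.366, 0.0786, 0.0911, 0.102 and 0.199, where 54.3 to 88.7% could be free RNA, and after its subtraction the sign of the difference between days 12 and 9 turned.

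Dusp1 dephosphorylates p38, JNK and ERK kinases and so ends the signals that induce it. Neutrophil-like cells had 7.20, 3.10, 4.35, 3.49 and 8.24 UMIs per 10000, on 10722, 4774, 6399, 5840 and 14639 UMIs, and no 2 neighbouring days in their order had overlapping intervals. Day 3 was 2.32-fold below day 0 (log2 -1.21, interval -1.26 to -1.17), and day 12 was 2.36-fold above day 9 (log2 1.24, 1.2 to 1.28) and 1.14-fold above day 0. In monocyte-like cells the levels of 13.5, 4.17, 4.48, 5.26 and 9.56 put day 3 at 3.23-fold below day 0 and day 12 at 1.82-fold above day 9. Free RNA could make up 10.4 to 19.8% of Dusp1 in neutrophil-like and 10.8 to 38.1% in monocyte-like cells.

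In lymphoid classes the measured course of Dusp1 was alike, but much of it could be free RNA. B-like cells had 2.56, 0.858, 1.37, 1.24 and 2.07 UMIs per 10000 of Dusp1, while free RNA would give 2.095, 1.15, 2.40, 1.86 and 3.33. Nothing was left at days 3 to 12 after subtraction. T-like cells were left with 0.401 at day 0, with 0.896 at day 12 and with nothing in between. NK-like cells were left with 1.12, 0.384, 0, 0 and 1.78, and pro/pre-B-like cells with 0.407, 0, 0.132, 0.394 and 0.286. In B-like cells the estimate was above the measured Dusp1 level from day 3 on. At day 6 it also exceeded the upper limit of the measured level, 1.53, so it was too high there. Whether Dusp1 in B-like cells from day 3 on was their own expression cannot be told from this estimate. Exons of Ergic1 on the other strand overlap those of Dusp1 in GENCODE vM21, as do exons of Tulp2 those of Ppp1r15a and of Gm44710 those of Zfp36, and whether reads were counted by strand is not given in the sources used here.

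**Figure D3:**
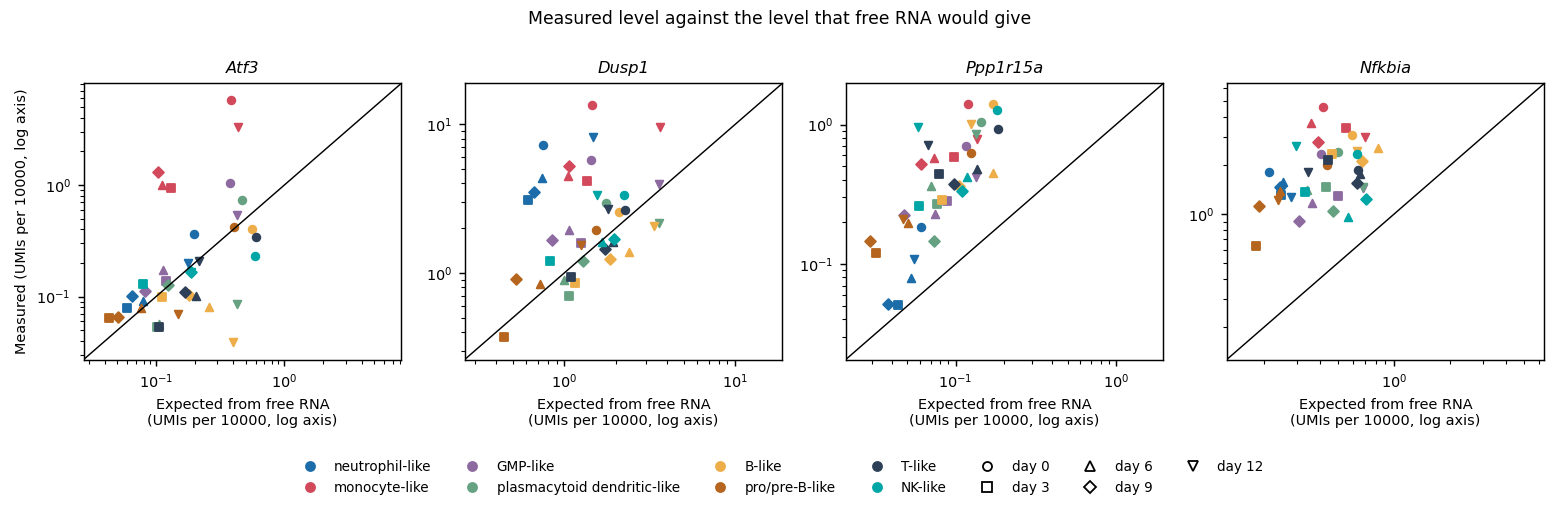
Measured UMIs per 10000 against the level that free RNA would give (both log axes) for 4 genes, 8 classes (colours) and 5 days (symbols). Points on or below the line are no higher than that estimated level. Atf3 was on or below the line in 18 of 40 combinations and Dusp1 in 14, Ppp1r15a and Nfkbia in none; Atf3 in NK-like cells at day 6, with 0 UMIs, is not drawn.

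Zfp36 binds AU-rich elements and speeds the decay of cytokine mRNAs. Days 0 and 12 were its 2 highest days in 8 of 8 classes, but the differences were smaller than for Dusp1. Monocyte-like cells had 6.70, 4.57, 4.38, 4.96 and 5.15 UMIs per 10000, and only the gap between days 0 and 6 came to 1.53-fold (log2 -0.61, interval -0.69 to -0.53) while days 12 and 9 overlapped. Neutrophil-like cells had 3.77, 3.03, 3.41, 3.08 and 3.68, and no pair of days passed 1.5 times. B-like cells had 3.25, 1.56, 2.18, 2.20 and 3.00, with day 3 at 2.08-fold below day 0 (log2 -1.06, -1.35 to -0.78), although 36.9 to 103% of these levels could be free RNA.

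Egr1, a zinc-finger factor induced by MAP kinase signals and important for monocyte and progenitor fate, was highest in GMP-like cells on all 5 days. At days 0, 3, 6 and 9 its interval there overlapped that of the next class. GMP-like cells had 0.676, 0.575, 0.409, 0.639 and 0.903 UMIs per 10000. Day 12 was above day 6 by a log2 of 1.14 (interval 0.90 to 1.39), and it was above day 0 by 0.42 (0.19 to 0.64), which is under 1.5-fold. In neutrophil-like cells Egr1 was at 0.560, 0.185, 0.196, 0.185 and 0.438, with day 3 at 3.02-fold below day 0 (log2 -1.59, -1.79 to -1.40) and day 12 at 2.37-fold above day 9 (log2 1.25, 1.05 to 1.44). Days 3, 6 and 9 overlapped there. B-like cells had 0.479, 0.187, 0.355, 0.488 and 0.156, the last on 4 UMIs.

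Nr4a1, an orphan nuclear receptor induced by antigen receptors and active in patrolling monocytes, showed little change where its level was highest. Monocyte-like cells had 1.10, 0.944, 0.953, 0.969 and 0.914 UMIs per 10000 on 264 to 509 UMIs, and neighbouring days all overlapped. The log2 ratio of day 3 to day 0 was -0.23 (interval -0.42 to -0.03). In B-like cells Nr4a1 was at 0.609, 0.336, 0.435, 0.308 and 0.390, and day 9 was 1.97-fold below day 0 (log2 -0.98, -1.49 to -0.49). Plasmacytoid dendritic-like cells had 0.731 at day 0 and 0.107, 0.162 and 0.194 at days 3, 6 and 9, on 36, 10, 17 and 20 UMIs. T-like cells had 0.276, 0.414, 0.172, 0.190 and 0.259 on 49, 31, 22, 26 and 15 UMIs, and the interval of the day 3 ratio, -0.11 to 1.26, spans 0.

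Ier2 and Ier5 had among the narrower ranges over days, and for them as for all 10 genes the range over classes was wider. Over the 8 classes the median ratio of the highest to the lowest day was 1.86 for Ier2 and 1.76 for Ier5, and the median ratio of the highest to the lowest class was 4.01 and 5.35. Ier2 in monocyte-like cells was at 7.08, 4.50, 4.50, 4.29 and 5.01 UMIs per 10000, with day 3 at 1.57-fold below day 0 (log2 -0.65, interval -0.74 to -0.57). In neutrophil-like cells Ier2 was at 5.57, 4.52, 4.96, 3.80 and 4.52, and none of its comparisons with day 0 passed 1.5 times. Ier5 was highest in plasmacytoid dendritic-like cells on 4 of 5 days, at 5.13, 3.09, 3.15, 3.22 and 4.82, and its day 12 level there was 1.51-fold above that of day 9 (log2 0.59, 0.15 to 0.99) on 56 UMIs. On each of those 4 days its interval there overlapped that of the next class. Ier5 in monocyte-like cells was at 4.78, 2.74, 3.19, 2.92 and 3.77, so days 3, 6 and 9 were again the 3 lowest.

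Btg2 and Nfkbia, like Nr4a1, mostly lacked the high level at day 12. Btg2 was higher at days 0 and 12 than on all other days in only 2 of 8 classes, and day 12 was its lowest day in neutrophil-like, monocyte-like, B-like and plasmacytoid dendritic-like cells. Neutrophil-like cells had 2.05, 1.86, 1.97, 1.66 and 1.60 UMIs per 10000 of Btg2, monocyte-like cells 1.93, 1.72, 1.71, 1.57 and 1.32, and B-like cells 3.32, 2.67, 3.27, 2.64 and 2.18. Of these only B-like cells passed 1.5 times at day 12 (1.51-fold below day 0, log2 -0.59, interval -1.03 to -0.21). Free RNA could account for at most 22.7% of Btg2 in B-like cells.

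Nfkbia, which NF-kB itself induces, was highest in monocyte-like cells on all 5 days, with an interval overlapping that of NK-like cells at day 12. Monocyte-like cells had 4.6, 3.43, 3.67, 2.78 and 3.02 UMIs per 10000. Day 9 was 1.66-fold below day 0 (log2 -0.73, interval -0.83 to -0.62), and days 12 and 9 overlapped. In GMP-like cells it was at 2.36, 1.30, 1.17, 0.906 and 1.45, with day 9 at 2.60-fold below day 0. Neutrophil-like cells had 1.81, 1.32, 1.59, 1.47 and 1.27, so day 12 was the lowest day, unlike for Dusp1 in the same cells. T-like cells had 1.87, 2.18, 1.76, 1.57 and 1.81, and neighbouring days all overlapped. Nfkbia was higher at days 0 and 12 than on all other days in 2 of 8 classes.

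**Figure D4:**
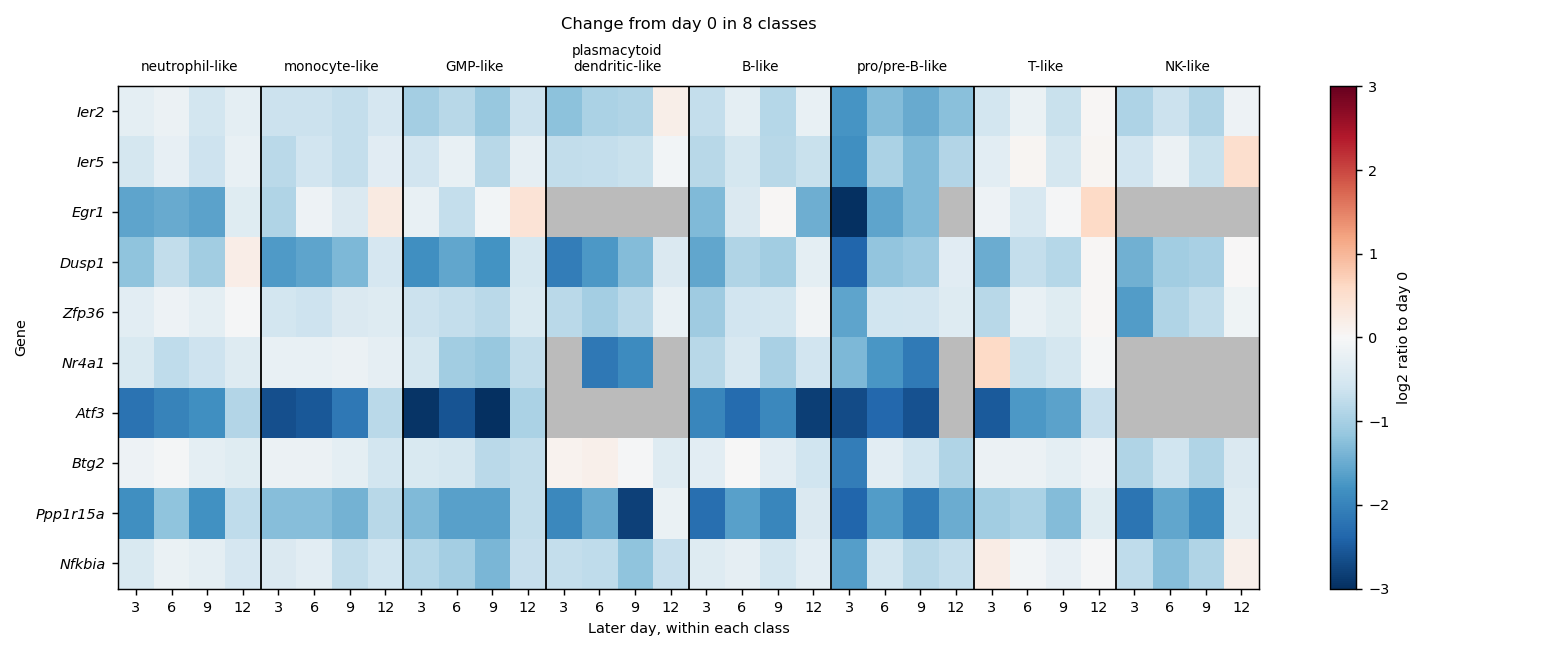
Log2 ratio of each gene (rows) to day 0 in 8 classes, with days 3, 6, 9 and 12 as columns in each; grey marks pairs with under 50 UMIs, and colours stop at -3 and 3. By the median over measured classes, Atf3, Ppp1r15a and Dusp1 were lowest at days 3, 6 and 9, and Btg2 was less far below day 0 than these 3. The lowest single value at day 3 was that of Egr1 (-3.03). The lowest values of Nr4a1 at days 6 and 9 lay below those of Dusp1.

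The low levels at days 3 to 9 recurred inside clusters. Among neutrophil-like clusters, Dusp1 in cluster 3, led by Ifitm1 and Csf3r, was at 28.8, 10.3, 15.9, 11.8 and 22.7 UMIs per 10000. In cluster 2, led by Fcnb and Camp, it was at 3.60, 0.927, 1.22, 1.16 and 2.19. Dusp1 was lower than at day 0 by 1.5 times in 18 of 18 measured clusters at day 3 and in 15 of 19 at day 9, Ppp1r15a in 13 of 14 and 15 of 17, and Atf3 in 9 of 9 and 10 of 10. Btg2 was in 4 of 18 and 8 of 19. At day 12 Dusp1 was lower in 4 of 18 clusters, but Ppp1r15a in 11 of 17 and Atf3 in 9 of 10, so within clusters these 2 mostly stayed below day 0. Holding clusters at their pooled share gave 19 lower comparisons of 40 in neutrophil-like cells in place of 17.

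Nfkbia differed more between clusters than between days. Neutrophil-like cluster 11, led by Irg1, Il1r2 and Cd14, had 15.8, 7.58, 10.6, 11.7 and 8.84 UMIs per 10000, against 1.11, 0.836, 1.23, 0.988 and 0.895 in cluster 0, led by Ly6g and Ltf. Monocyte-like cluster 12, led by Cd83 and Cd14, had 10.2, 10.2, 8.96, 8.71 and 8.65, while cluster 4, led by S100a4 and Ccr2, had 2.31, 1.49, 1.88, 1.2 and 1.90. Dusp1 in those monocyte-like clusters was not split that way. It was at 7.67, 4.63, 4.85, 5.59 and 7.61 in cluster 12 and at 16.6, 4.12, 4.62, 5.33 and 10.4 in cluster 4. Clusters were formed without these genes but from cells of the same libraries, so their differences are a description.

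**Figure D5:**
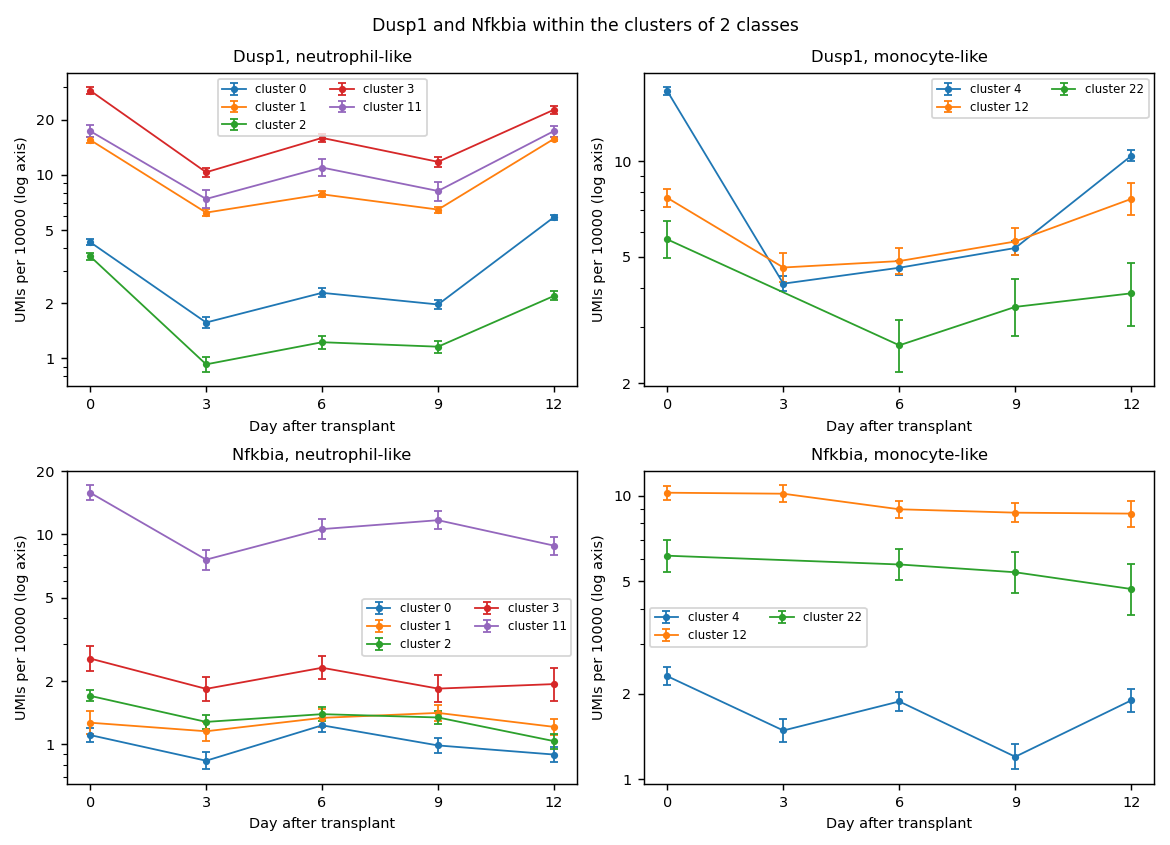
Dusp1 (top) and Nfkbia (bottom), UMIs per 10000 on a log axis, by day within the clusters of neutrophil-like (left) and monocyte-like cells (right), with exact 95% Poisson intervals; clusters with under 20 cells on a day have no point. Dusp1 dips at days 3, 6 and 9 in all clusters drawn, while Nfkbia separates cluster 11 and clusters 12 and 22 from the rest on all days.

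UMIs of several of the 10 genes in 1 barcode were most frequent at days 0 and 12 in most classes. The free RNA levels of Dusp1 and Ier2 were highest on the same days, and their part in this was not tested. With each cell thinned to 1000 UMIs, 61.2% of monocyte-like cells had a UMI of at least 3 of the genes at day 0 (exact 95% interval 57.7 to 64.6%), 32.1%, 31.8% and 30.2% at days 3, 6 and 9, and 48.1% (43.7 to 52.6%) at day 12. Neutrophil-like cells had 34.6, 23.0, 30.1, 21.5 and 32.7%. GMP-like cells had 24.2, 6.01, 6.51, 4.73 and 15.6%, and T-like cells 13.8, 7.32, 8.94, 6.13 and 17.6%. B-like cells had 25.5, 6.53, 15.5, 11.0 and 15.9%, the last with an interval of 9.72 to 24.0%, so days 6 and 12 did not separate. No share expected from free RNA alone was computed. Shallower cells were left out, 3 to 12 monocyte-like and 122 to 192 neutrophil-like cells per day.

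The share of cells with a Dusp1 UMI is given for monocyte-like cells beside that of B-like cells. At 1000 UMIs it was 61.5, 29.98, 32.1, 38.3 and 50.7% in monocyte-like cells and 15.9, 6.19, 13.03, 9.77 and 22.1% in B-like cells. The Dusp1 level of B-like cells was no higher than the free RNA estimate from day 3 on. Unthinned, the shares were 88.8, 76.9, 77.4, 82.4 and 87.2% and 25.2, 12.7, 22.4, 17.3 and 27.5%. Median depths were 5311 to 7310 UMIs in monocyte-like and 1539 to 1856 in B-like cells.

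The AP-1 genes, many of which answer to the same kinases, had a like course. Fos in monocyte-like cells was at 28.1, 12.1, 11.1, 14.3 and 21.9 UMIs per 10000, and in neutrophil-like cells at 8.84, 4.55, 5.37, 4.90 and 8.54. Fosb in neutrophil-like cells ran 2.93, 1.38, 1.62, 1.38 and 2.86 and Jund 6.86, 4.70, 5.04, 4.92 and 6.34. Jun, at 6.30, 3.84, 3.42, 3.06 and 3.81, and Junb, at 4.16, 3.13, 3.75, 2.43 and 3.05, stayed below their day 0 level at day 12. Of the 7 AP-1 genes, 3 were lower in neutrophil-like cells at day 3, 4 at day 6, 5 at day 9 and 1 at day 12, when 1 was higher. The shares of all genes lower in these cells on those days, 4.33, 3.48, 4.43 and 5.14%, are also the background of the lists that follow.

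Other induced genes divided by list. Of 28 genes of growth factor and calcium responses, 22 were measured in neutrophil-like cells and 11 were lower at day 3 than at day 0, none higher, with a median log2 ratio of -0.58, where all genes had 0.15. In monocyte-like cells it was 9 lower and 1 higher of 22, where 4.38% of all genes were lower. Klf2, a factor of lymphocyte and monocyte quiescence, had log2 ratios to day 0 of -1.47, -1.52, -1.40 and -0.66 in neutrophil-like cells, and Rgs1, a brake on chemokine receptors, of -0.87, -1.44, -1.32 and -0.52. Pim1 and Srf, at the other end, ranged from -0.10 to 0.27 and from -0.11 to 0.57.

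Of the 20 genes of NF-kB response and feedback, 7 of 19 were lower and 1 higher at day 3 in neutrophil-like cells, where 4.33% of all genes were lower, and 4 of 20 were lower in monocyte-like cells (4.38%). The chemokine genes Ccl3 and Cxcl2 had the lowest values in neutrophil-like cells, with log2 ratios of -2.42, -1.95, -2.53 and -0.24 for Ccl3 and of -2.64, -1.92, -2.24 and 0.02 for Cxcl2. Nfkb1, at 0.49 to 0.70, and Bcl3, at 0.55 to 0.79, were above day 0 on all later days. Thus genes of 1 pathway lay on both sides of day 0.

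Of 10 relatives in mRNA decay and growth arrest, 9 were measured in neutrophil-like cells and 3 were lower at day 3 (4.33% of all). Gadd45a and Gadd45g, which are induced by DNA damage and stress, had log2 ratios of -1.25 and -1.03 at day 3 and of 0.08 and -0.12 at day 12. Zfp36l1 and Zfp36l2, the relatives of Zfp36 in mRNA decay, did not share its course: Zfp36l2 had 0.39, 0.62, 0.45 and 0.02 and Zfp36l1 -0.29, 0.29, 0.18 and 0.26.

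The integrated stress response list, the pathway of Ppp1r15a and Atf3, differed between classes. Of its 10 genes 9 were measured in neutrophil-like cells, and 1, 0, 1 and 3 were lower than at day 0 at days 3, 6, 9 and 12, with 1 higher at day 12 and medians of -0.15, -0.21, -0.30 and -0.47. In GMP-like cells the medians were -0.50, -0.80, -0.67 and -0.68, where all genes had 0.17, 0.17, 0.11 and 0.05. Atf4, the factor that drives the pathway, had log2 ratios of -0.51, -0.50, -0.49 and -0.47 in neutrophil-like cells and so did not return at day 12. Chac1 had -0.78, -0.52, -1.35 and -1.20. Ppp1r15b, the constitutive partner of Ppp1r15a, had -0.03, 0.15, 0.24 and 0.42.

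Heat shock genes varied in direction. Of 11 genes, 9 were measured in neutrophil-like cells and 2 were lower on each later day (3.48 to 5.14% of all genes), with a median log2 ratio of 0.25 at day 3 and of -0.30 at day 12. Dnajb1 had -1.17, -0.95, -1.18 and -0.52, and Hspa5 -0.74, -0.72, -0.86 and -0.62, while Hsp90ab1 had 0.42, 0.35, 0.36 and -0.09 and Hspd1 0.33, 0.21, 0.33 and -0.06. In plasmacytoid dendritic-like cells the list had medians of -0.58, -0.60, -0.69 and -0.83, where all genes had -0.04, -0.03, -0.06 and -0.06. Hspa1a in monocyte-like cells, named after its values were seen, was at 0.527, 1.02, 0.452, 0.865 and 0.561 UMIs per 10000, higher at days 3 and 9 than at days 0 and 12. The part of tissue handling in any of these levels was not tested.

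Among 7352 genes with at least 1000 UMIs, likeness to the 10 genes was measured as Pearson's r with the median of the 10 over 40 points of class and day, each centred within its class. The 10 most alike genes outside the list were Fos (0.92), Dusp2 (0.90), Junb (0.90), Sertad1 (0.89), Jund (0.89), Rbm39 (0.89), Tra2b (0.89), Klf2 (0.88), Jun (0.88) and Pnrc1 (0.88). Rbm39 and Tra2b encode splicing regulators. Among the members, whose own values enter the median, r was 0.94 for Ier2, 0.90 for Ier5, 0.89 for Dusp1 and for Ppp1r15a, and 0.75 for Egr1, 0.65 for Nr4a1 and 0.59 for Btg2, which ranked 219 of the 7352. Points of 1 day share a library and its free RNA, so r is a description of these 5 libraries.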

How the data were processed

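The authors deposited raw counts of UMIs per gene and barcode for each of 5 libraries, unfiltered, made with Cell Ranger against mm10 per the labels. Whether reads were counted by strand is not given in the sources used here. The 5 days were taken from the labels, with 1 mouse each.

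Barcodes with at least 500 UMIs were kept, with no limit on the mitochondrial share, doublets included. They were clustered together (Scanpy 1.11.5, leidenalg 0.10.2, resolution 0.6, random seed 1) without the 10 genes and the genes of 6 related lists. Clusters were named from marker lists, and the naming rule was revised after names had been seen. The 10 genes and all lists were chosen with earlier results of these data known. The AP-1 genes Fos, Fosb, Jun, Junb and Jund were always named, and genes from the other lists were taken by a rule of size, the 2 lowest and 2 highest median ratios to day 0 in neutrophil-like cells among measured members, and like genes by the 10 highest correlations.

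UMIs were summed per class and day and divided by all UMIs of the class, as UMIs per 10000. Log2 ratios had 0.5 added to each sum and needed at least 50 UMIs over both days. A difference counted from 1.5 times upward, a size rule and no test. Intervals are exact 95% Poisson, conditional binomial (for ratios) or Clopper-Pearson (for shares) intervals and cover counting error only. Levels are of 3' ends and were not compared between genes. Scripts were checked on simulated counts. SciPy 1.17.1, pandas 2.3.3 and NumPy 2.4.6 were used.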

Additional observations from a re-analysis of the deposited data

Results flagged for a closer look

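Egr1 differed in sign between B-like cells and other classes in comparisons with day 12, where B-like cells held only 4 Egr1 UMIs. From day 0 to day 12 its log2 ratio was 0.60 in T-like and -1.46 in B-like cells. From day 6 to day 12 it was 1.16 in neutrophil-like and 1.14 in GMP-like cells, against -1.02 in B-like cells. From day 9 to day 12 it was 1.25 in neutrophil-like, 0.70 in monocyte-like and 0.64 in T-like cells, against -1.48 in B-like cells.

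Nr4a1 had a log2 ratio of day 3 to day 0 of 0.59 in T-like cells, on 49 and 31 UMIs, and of -1.34 in pro/pre-B-like cells, on 47 and 66 UMIs. The difference between classes was not tested in any of these cases, since each day is 1 mouse.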

How the results depend on the processing

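Median-ratio scaling, per-cell means, a limit of 1000 UMIs, a limit of 10% mitochondrial UMIs, resolution 1.2 and clusters held at their pooled share kept all counts of passed comparisons within 1.5 times. With 1 count per 10000 added, the scale of the study, comparisons below day 0 came to 3 in neutrophil-like, 12 in monocyte-like, 1 in T-like, 10 in B-like and 12 in pro/pre-B-like cells, and comparisons among the later days to 3, 6, 2, 2 and 3. A fold of 2 gave 11, 9, 12 and 6 below day 0 in neutrophil-like, monocyte-like, B-like and T-like cells, and 6, 6, 3 and 10 among the later days in B-like, monocyte-like, T-like and pro/pre-B-like cells. Thinning gave 13 in B-like, 17 in pro/pre-B-like and 8 in T-like cells below day 0, and 2 in pro/pre-B-like and 7 in T-like cells among the later days. A minimum of 10 UMIs and no minimum each gave 22 in T-like cells among the later days, and subtracting free RNA gave 26 in B-like and 26 in T-like cells. Both counts of 26 include comparisons of levels that subtraction had cut to 0. Leaving out the 5% of barcodes with the highest doublet score gave 6 below day 0 in T-like cells, and leaving out cells with a Cdkn2a UMI gave 6 among the later days in pro/pre-B-like cells. These last 2 settings and the fixed cluster shares were chosen after seeing the data. Subtraction turned the sign of Dusp1 at day 12 against day 9 in pro/pre-B-like cells (-0.36) and of Atf3 in neutrophil-like cells (-0.68). It also turned that of Atf3 at day 3 against day 0 in B-like (1.09), pro/pre-B-like (0.53) and T-like cells (1.2). In B-like and T-like cells no Atf3 was left on either day. Their values come only from the count added to each sum and show no rise. Of the other values of single genes, 176 moved beyond their counting interval and 923 did not. The doublet calls planned at the outset were not used, since the caller marked almost no barcode outside day 0. No paired analysis was possible because each day is 1 mouse, and for the same reason no library could be left out of a group.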

Other observations

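Outside the 8 classes, days 0 and 12 were the highest of Dusp1 in clusters 7 and 13 but not in cluster 19. Cluster 13, led by H2-Eb1, H2-Aa and Cd209a, had 8.22, 3.18, 3.13, 3.65 and 7.57 UMIs per 10000 of Dusp1 and 2.03, 1.26, 0.808, 0.797 and 2.30 of Atf3 from day 0 to day 12. Cluster 7, led by mitochondrial transcripts with a median share of 60.8% of UMIs, had 5.57, 1.69, 2.28, 1.76 and 5.82 of Dusp1 and 1.63, 0.455, 0.261, 0.229 and 1.74 of Egr1. Cluster 19, led by Slfn4 and Adpgk, had 3.82, 2.91, 6.66, 4.65 and 7.497 of Dusp1 on 19 to 62 UMIs. In cluster 13, Egr1 did not separate the days, at 0.578, 0.624, 0.380, 0.485 and 0.533, nor did Nr4a1, at 1.14, 0.919, 0.879, 0.851 and 0.733.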
